A study of Homo sapiens with 10 samples.

Results

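The regions described here are stretches of the genome where BRD9 was called after SMARCB1 was induced, was not called under the control induction, and where SMARCB1 itself was called. They were taken from CUT&RUN, an assay in which an antibody tethers a nuclease that cuts out the DNA next to the bound protein. G401 cells were used, an established rhabdoid tumour line that carries the genotype SMARCB1(-/-), and all groups share this genotype and induction of a transgene by doxycycline. The transgene encoded GFP in the control cells and SMARCB1 in the induced cells. Of 10 samples, 8 had a peak list: 3 for BRD9 with GFP induced, 3 for BRD9 with SMARCB1 induced and 2 for SMARCB1 with SMARCB1 induced. The samples for SMARCB1 under GFP and for IgG under SMARCB1 were not analysed here. Neither a dose nor a duration of doxycycline is given, nor whether the transgenic cells are 1 clone. Nothing says that replicates came from separate cultures, so p-values measure only the spread between these samples, which may be technical. The cell line could not be checked by marker genes, because no expression was measured.

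Peaks of the 6 BRD9 lists on chromosomes 1 to 22 and X were merged wherever they shared at least 1 bp, which gave 116495 BRD9 regions. Gained regions had a peak in each of the 3 SMARCB1-induced BRD9 lists and in 0 of the 3 GFP-induced ones, which held for 8049 regions, 6.91% of all. Of these, 7861 overlapped a SMARCB1 region, a merged interval holding a peak of both SMARCB1 lists, and they are the gained regions of this account. They made up 17.4% of the 45271 BRD9 regions that overlap a SMARCB1 region. The opposite pattern, a call in each GFP-induced list alone, held for 1210 of all BRD9 regions (1.04%) and for 353 at SMARCB1 (0.78%). All 6 lists called 3328 regions at SMARCB1 (7.35%), which are the constant class used for comparison. Away from SMARCB1 regions 188 of 71224 BRD9 regions were gained (0.264%), and 109 of these overlapped a SMARCB1 peak of a single replicate. Since the peak calls chose the regions, these counts and every BRD9 level below are descriptions and carry no test.

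SMARCB1 is a core subunit of the canonical BAF and PBAF forms of SWI/SNF, the ATP-driven remodellers that slide and evict nucleosomes. Its loss defines rhabdoid tumours. BRD9 reads acetylated lysines through its bromodomain and belongs to another form, non-canonical BAF, which contains no SMARCB1 and on which rhabdoid cells are known to depend.

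The BRD9 libraries held 10.6, 12.1 and 10.2 M reads with GFP induced and 12.1, 10.1 and 13.9 M reads with SMARCB1 induced. The SMARCB1 libraries were deeper, with 64.2 and 59.7 M reads. Each list also gives the reads of a control library in its own peaks, a library of 23.1 M reads for every BRD9 list and of 49.6 M for either SMARCB1 list. A list gives reads at its own peaks only. The BRD9 level of GFP-induced cells at the gained regions is therefore not measured beyond the absence of a call, and a missing call does not show that BRD9 was absent.

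BRD9 was moderately dense at the gained regions. Density is given as RPKM, reads per kilobase of peak per M reads of the library, taking the peak with the most reads where a list had several in a region. The median over the gained regions was 3.76, 3.86 and 3.41 RPKM in replicates 1, 2 and 3 of the SMARCB1-induced cells (3.68 ± 0.235, SD, n = 3), from a median of 38, 30 and 38 reads per peak. The regions called in all 6 lists had 4.36, 4.53 and 3.97 RPKM in the same lists, and 4.06, 5.61 and 4.30 RPKM in those of GFP-induced cells. In each SMARCB1-induced list the gained regions thus had the lower median, by a mean log2 difference of -0.22 ± 0.010 (SD, n = 3), or -0.14 ± 0.018 between BRD9 regions of 500 to 2000 bp. From the 10th to the 90th percentile the gained regions ran from 2.88 to 5.28, from 3.07 to 5.48 and from 2.70 to 4.76 RPKM in the 3 lists, so the classes overlapped widely.

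**Figure D1:**
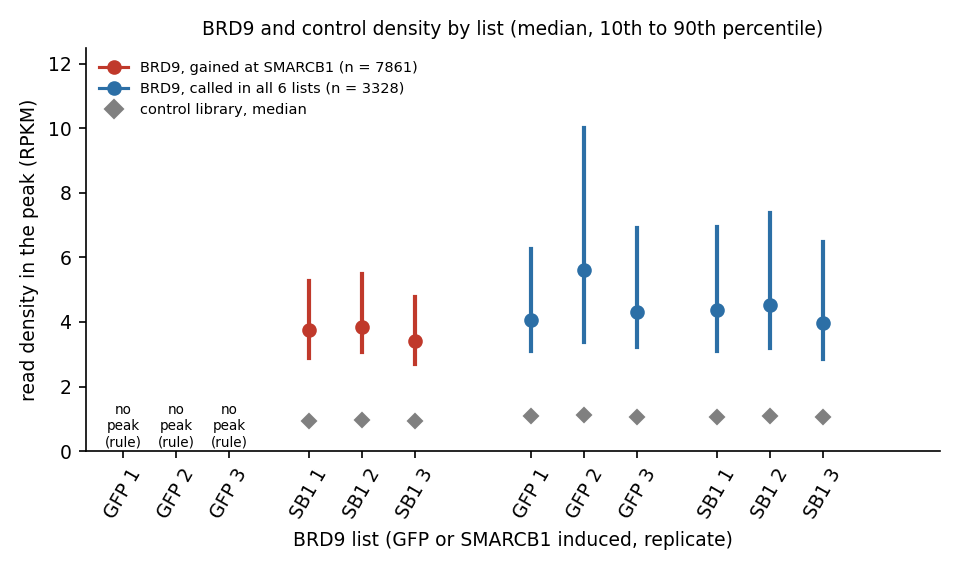
Median BRD9 read density in RPKM (points) with the 10th to 90th percentile over regions (lines), for each BRD9 list, and the median density of the control library in the same peaks (grey diamonds). The gained regions sit at medians of 3.41 to 3.86 RPKM in the 3 SMARCB1-induced lists and have no peak in GFP-induced lists by the rule, while regions called in all 6 lists reach 3.97 to 5.61 RPKM.

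Over single gained regions, the mean density of the 3 lists had a lowest value of 2.45, a median of 3.67 and a highest of 11.7 RPKM. The SD over the lists was 12.6% of that mean in the median region. Between pairs of lists the log2 densities of the 7861 regions correlated with Pearson's r of 0.631 to 0.656, against 0.816 to 0.837 for regions called in all 6 lists, as a description over regions that share libraries. The BRD9 apex, the position the authors give as the top of a peak, moved by a median of 100 to 106 bp from list to list at gained regions. In 3235 (41.2%) the lowest of the 3 densities exceeded the median peak density of every GFP-induced list. Those GFP peaks lie elsewhere and come from other libraries, so the share does not measure BRD9 under GFP at the gained regions. The same share for the other classes is not given.

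Reads of the BRD9 control library were also dense in these intervals. The gained regions had control medians of 0.931, 0.959 and 0.943 RPKM over the intervals of the 3 lists, a mean 2.87 times the 0.330 RPKM of an even spread over the chromosomes. Control density was higher at regions called in all 6 lists (3.23 times an even spread) and lower at those called only with GFP induced (2.01 times) and at regions gained away from SMARCB1 (1.39 times). The median ratio of BRD9 to control density at the gained regions was 4.13, 4.18 and 3.70. The cells behind the control library are not named, and the part of the control signal in the calls was not tested.

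The rule has neighbours on both sides of its threshold. At SMARCB1 regions, 5879 BRD9 regions had a peak in 2 of 3 SMARCB1-induced lists and in 0 of 3 GFP-induced lists. The list without a peak was replicate 1 for 1811, replicate 2, the shallowest, for 2306 and replicate 3 for 1762. These regions were weaker, with 3.15 ± 0.184 RPKM (SD, n = 3), and narrower, with a median merged width of 689 bp against 1087 bp. Merging peaks of 2 lists and not 3 by itself gives narrower regions. Their single peaks had a median width of 515 ± 28.9 bp, against 791 ± 32.2 bp at gained regions (SD, n = 3). Another 1400 regions had a peak in all 3 SMARCB1-induced lists and in 1 GFP-induced list, which was replicate 2 for 873 of them, replicate 3 for 361 and replicate 1 for 166. Their density was 3.65 ± 0.210 RPKM (SD, n = 3) with SMARCB1 induced, close to that of the gained regions.

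Leaving lists out of the choice shows how the calls repeat from list to list. The full rule used all 6 lists, and the neighbour counts above come from the same calls. The shares below largely restate those counts and are not separate support for the gained class. Regions at SMARCB1 were chosen from 2 SMARCB1-induced and 2 GFP-induced lists, and the remaining same-numbered lists were then read. Of the 10043 regions chosen without replicate 1, 81.4% were called in the left-out SMARCB1-induced list and 2.11% in the left-out GFP-induced list. Without replicate 2 there were 11410 regions, with 77.8% and 9.88% called, and without replicate 3 there were 10295, with 82.0% and 4.62%. On average 80.4 ± 2.31% were called in the left-out SMARCB1-induced list, and 5.54 ± 3.96% in the GFP-induced one (SD, n = 3 each). Over all 9 pairs of left-out lists the difference ran from 67.9 to 79.8 percentage points. The choices share lists, so no p is given. The same shares over all BRD9 regions at SMARCB1, or for regions chosen by the opposite pattern, are not given here. How far the difference is particular to the gained class was therefore not tested.

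The gained regions were narrow and lay well inside broader SMARCB1 regions. Their widths ran from 375 to 9222 bp with a median of 1087 bp, and together they covered 9.90 Mb. The SMARCB1 regions around them had a median width of 3530 bp and were 3.04 times as wide as the gained region in the median pair. SMARCB1 covered 7049 gained regions (89.7%) from end to end and less than 50% of only 30, and 31 overlapped more than 1 SMARCB1 region. This was not particular to the gained class. Of the neighbours of the rule, 90.6% with 2 of 3 SMARCB1-induced calls and 87.1% with 1 GFP call were covered from end to end. Their SMARCB1 regions were 3.76 and 3.52 times as wide. Coverage was lower for regions called in all 6 lists (70.9%) and for those called only under GFP (48.4%). Regions called in all 6 lists were wider, with a median of 2189.5 bp in SMARCB1 regions of 5500 bp. Merging peaks of 6 lists and not 3 by itself gives wider regions. In the SMARCB1-induced lists their single peaks had a median width of 1202 ± 49.4 bp, against 791 ± 32.2 bp at gained regions (SD, n = 3). Limits on the width of BRD9 regions apply to the merged width, so they are not like for like between these classes.

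Position was compared list by list, since the rule required no more than an overlap of 1 bp. All 3 lists were read at the same regions, each with a peak in all 3, and against the same 2 SMARCB1 lists. The SD and the agreement in sign below therefore show how calls repeat at these regions, and are not independent repeats of the comparison. Of the BRD9 peaks of the gained regions, 93.6, 95.5 and 95.8% in replicates 1, 2 and 3 lay wholly inside the SMARCB1 region. For the peaks of regions called in all 6 lists it was 86.7, 87.3 and 86.5%. The gained regions were the higher in 3 of 3 lists, by 8.11 ± 1.24 percentage points (SD, n = 3), and by 7.41 ± 1.49 points among BRD9 regions of 500 to 2000 bp. A two-sided exact sign-flip permutation test over 3 lists cannot go below p = 0.25, which it gave here (adjusted p = 0.375 over the 6 tests made), so no position result could pass 0.05.

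Gained BRD9 peaks also had the smaller distance to the middle of the SMARCB1 region in each list. The distance between the centres, divided by the distance from the SMARCB1 centre to its edge, is 0 at the centre and 1 at the edge. Its median was 0.280, 0.283 and 0.281 for gained regions and 0.334, 0.330 and 0.325 for regions called in all 6 lists. The difference of -0.048 ± 0.0054 (SD, n = 3) had the same sign in 3 of 3 lists (exact sign-flip permutation test, p = 0.25, adjusted p = 0.375). It shrank to -0.017 ± 0.0016 among BRD9 regions of 500 to 2000 bp. A peak has a width, so its centre cannot reach the edge while it lies inside. For peaks wholly inside, the distance was therefore also divided by the room each had to move, a scale on which even placement gives a median of 0.5. It was then 0.402, 0.398 and 0.396 for gained regions and 0.465, 0.457 and 0.452 for regions called in all 6 lists.

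The tops of the gained BRD9 peaks lay close to tops of SMARCB1 peaks. The median distance from a BRD9 apex to the nearest SMARCB1 apex was 194, 195.5 and 197 bp in the 3 lists, each averaged over both SMARCB1 lists. For regions called in all 6 lists it was 281.75, 281.5 and 283.5 bp. The difference of -86.75 ± 0.901 bp (SD, n = 3) held in every list (exact sign-flip permutation test, p = 0.25, adjusted p = 0.375). Width moved with it: among BRD9 regions of 500 to 2000 bp the medians were 188 and 196 bp, and the difference was -7.5 ± 2.05 bp.

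Within 150 bp of the apex of the SMARCB1 peak they lay in were 41.3, 40.5 and 40.6% of the gained BRD9 apexes. Placing each apex evenly along the same SMARCB1 peaks would give 13.1, 13.2 and 13.1%. Regions called in all 6 lists reached 33.2, 32.7 and 33.1%, with 12.04 to 12.14% by even placement. The gained regions were 7.75 ± 0.291 percentage points higher (SD, n = 3; exact sign-flip permutation test, p = 0.25, adjusted p = 0.375). This difference changed sign when both classes were limited to BRD9 regions of 500 to 2000 bp. The share there was 42.2% for gained regions and 43.0% for those called in all 6 lists, a difference of -0.76 ± 0.214 points. Even placement gave 13.7% and 16.7%, so the classes were not matched within these limits, and the base differed along with the share. Closeness to SMARCB1 apexes was thus found in both classes and was not particular to the gained one.

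**Figure D2:**
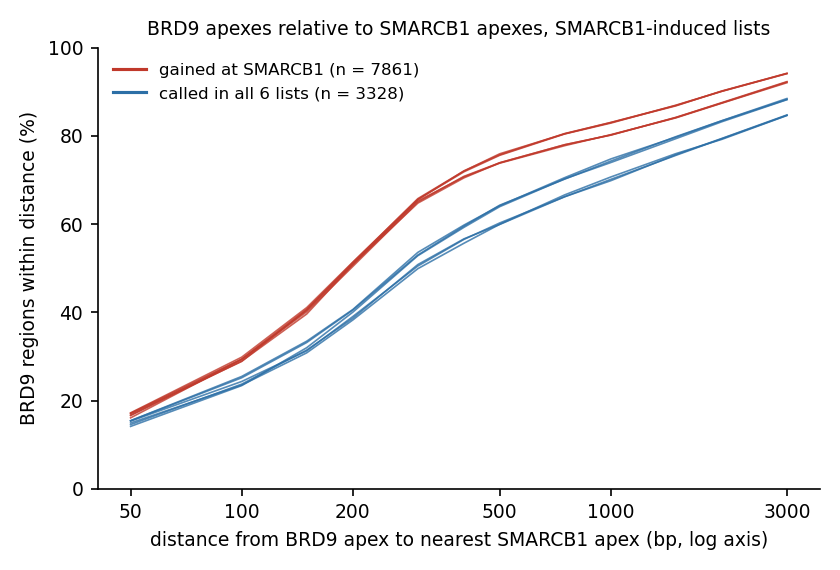
Cumulative share of BRD9 regions (%) against the distance from their BRD9 apex to the nearest SMARCB1 apex (bp, log axis), with 1 line for each of the 6 pairs of a SMARCB1-induced BRD9 list and a SMARCB1 list. Gained regions reach 64.8 to 65.8% within 300 bp, and regions called in all 6 lists reach 49.9 to 53.6%.

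Gained BRD9 was found at the denser SMARCB1 regions. Of 87641 SMARCB1 regions, 6860 (7.83%) held a gained region, and 2982 (3.4%) held one called in all 6 lists. Median SMARCB1 density was 1.86 and 2.09 RPKM in the 2 lists where a gained region was present and 1.38 and 1.40 RPKM at the 55350 SMARCB1 regions with no BRD9 peak. The log2 difference was 0.50 ± 0.107 (SD, n = 2), a 1.41-fold higher density, and was positive in 2 of 2 lists. With 2 lists the exact sign-flip permutation test cannot go below p = 0.5, the value it gave (adjusted p = 0.5). The 2 kinds differed in width as well, with medians of 3100 and 993 bp, and among SMARCB1 regions of 500 to 2000 bp the log2 difference was 0.30. The median SMARCB1 region with a gained region ranked at the 89.8th percentile of SMARCB1 density. It was the 92.2nd for those with a region called in all 6 lists, the 72.0th for those with one called only under GFP and the 37.3rd with no BRD9 peak. The share with any BRD9 region went from 13.1% in the lowest decile of SMARCB1 density to 90.8% in the highest. High SMARCB1 density was thus not particular to the gained class.

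Between the gained and the constant class SMARCB1 density was nearly the same. SMARCB1 regions holding a gained region and none called in all 6 lists had 1.85 and 2.07 RPKM, and those of the opposite kind had 1.94 and 2.12 RPKM. The log2 difference of -0.052 ± 0.026 (SD, n = 2; exact sign-flip permutation test, p = 0.5, adjusted p = 0.5) depended on the handling: it was 0.017 without SMARCB1 replicate 1 and 0.22 once control density was subtracted. The control library of the SMARCB1 lists differed more. Its density was 0.387 and 0.380 RPKM over SMARCB1 regions with a gained region, 0.584 and 0.554 RPKM over those with a region called in all 6 lists, and a mean of 0.444 RPKM over those with no BRD9. The median ratio of SMARCB1 to control was accordingly 4.87 and 5.57 with a gained region, 3.30 and 3.79 with one called in all 6 lists, and 3.02 and 3.26 with no BRD9 peak. The names of the SMARCB1 lists give GFP as the negative control. Which antibody that control used is not given, and its part in these ratios was not tested.

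The share of SMARCB1 regions with a gained region was higher at high SMARCB1 density. It was 0.650% (95% Wilson interval 0.502 to 0.842%) in the lowest decile of density, with a median of 1.22 RPKM, and 1.76% (1.503 to 2.054%) in the fifth decile. In the ninth it was 16.9% (16.1 to 17.7%), and in the highest, with 2.23 RPKM, 38.6% (37.6 to 39.6%). Wilson intervals here cover counting error only. Width differed along the deciles too, with medians of 1150 bp in the lowest, 875 bp in the fourth and 3425 bp in the top decile. Among SMARCB1 regions of 500 to 2000 bp the share still ran from 0.640% to 13.4%. For regions called in all 6 lists it ran from 0.445 to 19.1% over all widths and from 0.488 to 6.16% at 500 to 2000 bp.

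**Figure D3:**
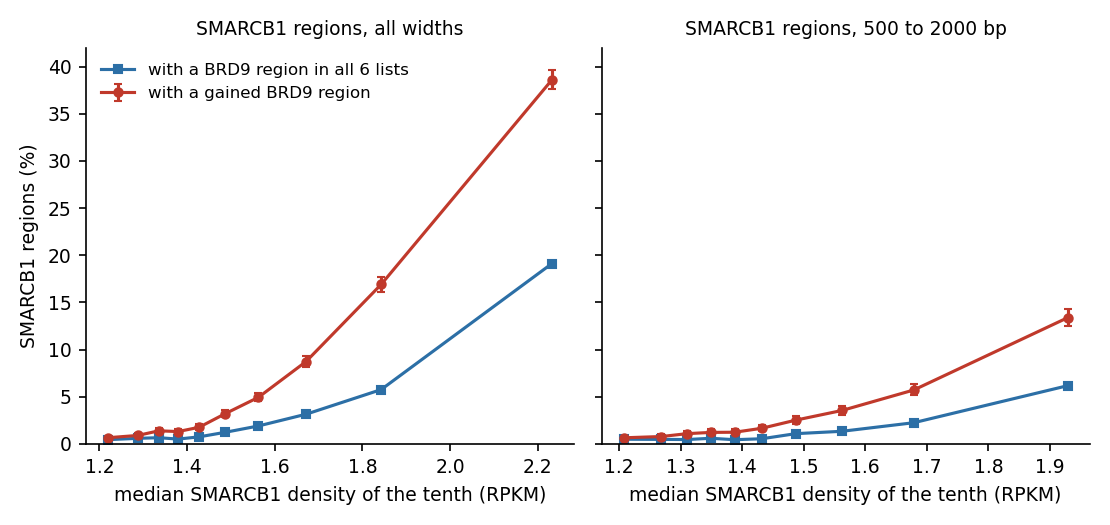
Share of SMARCB1 regions (%) that hold a gained BRD9 region (red, bars are 95% Wilson intervals) or a BRD9 region called in all 6 lists (blue), by decile of SMARCB1 density (median RPKM of the decile), for all SMARCB1 regions and for those of 500 to 2000 bp. The gained share reaches 38.6% in the densest decile over all widths and 13.4% in the densest decile at 500 to 2000 bp.

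The width of the SMARCB1 region had its own pattern. Per Mb of SMARCB1 region there were 11.2 gained regions in those under 1 kb, 37.3 at 1 to 2 kb, 58.1 at 2 to 5 kb, 57.3 at 5 to 10 kb and 46.8 at 10 kb and above. Per Mb, gained regions were thus most frequent at 2 to 10 kb, and 40.5% of them lay in SMARCB1 regions of 2 to 5 kb. Counted per SMARCB1 region, the share that held a gained region was higher in each wider class, at 0.815, 5.22, 16.6, 30.8 and 46.8%. Regions called in all 6 lists were more frequent in each wider class, from 8.99 to 38.5 per Mb.

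Within the gained regions the densities of both proteins went together. Across the 7861 regions BRD9 and SMARCB1 density had a Pearson's r of 0.44 on the log2 scale and a Spearman's rho of 0.44, a description over regions of the same libraries. Over 4 groups of equal size, from the lowest to the highest BRD9 density, the median SMARCB1 density went from 1.79 to 1.93, 2.10 and 2.33 RPKM and the median width of the SMARCB1 region from 2725 to 4950 bp. BRD9 control density went from 0.781 to 1.13 RPKM over the same groups, with an r of 0.30 between BRD9 and its control. SMARCB1 density and its control had an r of 0.098.

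The 5 gained regions with the highest BRD9 density, among the 5374 (68.4%) with at least 20 reads in each list, show the upper end. The first was on chr7:22616515-22618866, with 11.9, 12.6 and 10.7 RPKM from 293, 270 and 341 reads in replicates 1, 2 and 3. It lies in a SMARCB1 region of 10727 bp with 2.43 and 2.81 RPKM of SMARCB1, and its apexes were 192 to 270 bp from a SMARCB1 apex. All coordinates are as the authors' lists give them, hg19 by the names of the SMARCB1 lists, while the BRD9 lists name no build.

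The gained region chr3:171587576-171595415 was both dense and wide, with 9.31, 10.1 and 10.8 RPKM from 817, 770 and 1131 reads, the highest read counts of all gained regions in each list. Its 7839 bp lie in a SMARCB1 region of 40250 bp that holds 7 gained regions. The gained region chr10:3893351-3896730 had 8.87, 10.2 and 8.76 RPKM and nearly filled its SMARCB1 region, 3379 of 4125 bp. SMARCB1 was dense there as well, with 3.61 and 3.94 RPKM against a control of 0.302 RPKM. The others were chr12:50595526-50596426 with 9.50, 11.1 and 7.27 RPKM and chr8:58979476-58981158 with 7.57, 10.03 and 9.68 RPKM, where the BRD9 control had means of 2.55 and 2.69 RPKM, above the 1.11 to 1.49 RPKM of the first 3.

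The middle of the distribution looked different. The gained region closest to the median, chr16:11876672-11878181, had 3.59, 3.69 and 3.73 RPKM from 59, 51 and 65 reads. It lies in a SMARCB1 region of 4875 bp with 2.01 and 2.43 RPKM of SMARCB1. The next, chr15:67709084-67709637, rested on 14, 18 and 22 reads, and its apexes were 2907 to 3052 bp from the nearest SMARCB1 apex. Another, chr3:57978026-57978794, rested on 22, 13 and 45 reads, with 3.15, 3.64 and 4.22 RPKM.

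Of the 5 gained regions with the highest SMARCB1 density, 4 lay on chromosome 8 and 1 on chromosome 7. The first, chr8:58476559-58477415, had 4.85 and 5.89 RPKM of SMARCB1 across its SMARCB1 region of 63775 bp, and 4.27, 4.89 and 5.40 RPKM of BRD9. The next 3 shared a single SMARCB1 region of 68125 bp, chr8:116543151-116611276, with 4.34 and 5.26 RPKM of SMARCB1, so they are 1 SMARCB1 value and not 3. Both controls were high at these chromosome 8 sites. The SMARCB1 control was 0.622 to 0.767 RPKM, and the BRD9 control had means of 1.85 to 5.69 RPKM against 4.85 to 6.53 RPKM of BRD9. At chr8:116588593-116589037 BRD9 had 6.89, 6.31 and 6.39 RPKM and its control 5.69 RPKM, so there BRD9 exceeded its control by little. Chromosome 8 also had the highest median SMARCB1 density of all chromosomes, 1.56 RPKM. The fifth, chr7:84156801-84160080, had 4.17, 6.78 and 4.86 RPKM of BRD9 and a control of 1.22 RPKM, in a SMARCB1 region of 28925 bp with 4.22 and 5.22 RPKM that holds 4 gained regions.

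Most SMARCB1 regions with a gained region held just 1. This was so for 6108 of 6860, while 752 (10.96%) held 2 or more, up to 11, and these contained 1774 gained regions (22.6%). A gained region and one called in all 6 lists shared a SMARCB1 region in 215 cases, 3.13% of SMARCB1 regions with a gained region. Over all SMARCB1 regions 3.4% held one called in all 6 lists, a share that takes no account of SMARCB1 density. Of the 6860 SMARCB1 regions with a gained region, 1481 lay in the ninth decile of density and 3382 in the highest. In those deciles 5.75% and 19.1% of SMARCB1 regions held one called in all 6 lists, both above 3.13%. The 215 SMARCB1 regions with both were wide, with a median of 16343 bp, and dense, with 2.59 and 3.02 RPKM.

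The SMARCB1 region with the most gained regions was chr6:142623826-142725076. It spans 101 kb with 3.05 and 3.68 RPKM of SMARCB1, and its 11 gained regions cover 26.9 kb at a median spacing of 7.10 kb. The 3 GFP-induced lists had 0 BRD9 peaks in it, and the SMARCB1-induced lists had 20, 30 and 18. Mean BRD9 density of the 11 ran from 2.98 to 6.82 RPKM. In all 29 merged BRD9 regions lay there, of which 11 met the rule.

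**Figure D4:**
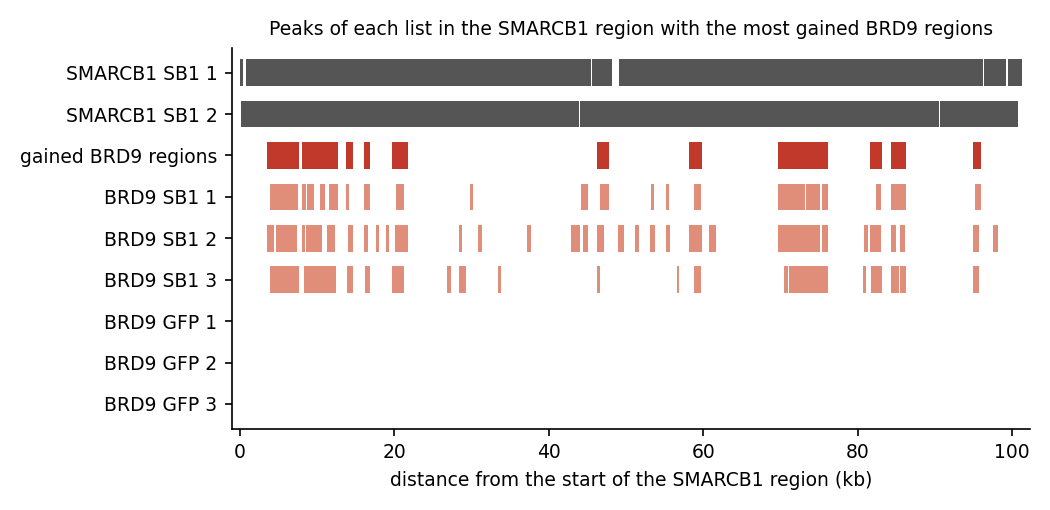
Peaks of each list along the SMARCB1 region that holds the most gained regions, with distance from its start in kb. Blocks are peaks of the 2 SMARCB1 and 6 BRD9 lists and, in dark red, the 11 gained regions. The SMARCB1 peaks span almost the whole 101 kb, the BRD9 peaks of SMARCB1-induced cells are separate blocks within it, and the GFP rows are empty.

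The other SMARCB1 regions rich in gained regions varied in what was called under GFP. The longest, chr7:80347976-80541224, spans 193 kb and holds 10 gained regions and 3 called in all 6 lists, with 11, 13 and 12 BRD9 peaks under GFP and 33, 36 and 31 under SMARCB1. In chr12:66219701-66306576, with 8 gained regions and 3 called in all 6 lists, the counts were 7, 9 and 12 against 23, 25 and 22. In chr2:172907401-172965476, with 8 gained regions, they were 0, 3 and 3 against 15, 15 and 18. In chrX:31331951-31378476, also with 8, they were 0, 0 and 0 against 12, 16 and 13.

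Along the chromosomes many gained regions lay near another one. The median distance from the centre of a gained region to the next nearest was 18.1 kb, and 5500 (70.0%, 95% Wilson interval 68.9 to 71.0%) had another within 50 kb. Part of this lies within single SMARCB1 regions: to the nearest gained region in another SMARCB1 region the median was 29.7 kb, with 63.9% within 50 kb. Regions called in all 6 lists were as close to each other, with a median of 17.4 kb and 67.1% within 50 kb, although they are fewer. The same distances for equal numbers of SMARCB1 regions or of other BRD9 regions are not given. How far the spacing goes beyond that of SMARCB1 regions was therefore not tested. From a gained region to the nearest region called in all 6 lists the median was 262 kb. Counted over SMARCB1 regions that hold none of the constant class, it was 303 kb for those with a gained region, 347 kb for those with no BRD9 peak and 308 kb for all, with 15.5, 15.01 and 17.5% within 50 kb. The gained regions thus lay about as far from constant ones as SMARCB1 regions in general.

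Neighbouring SMARCB1 regions were gained together more often than SMARCB1 regions at large. Of 6327 SMARCB1 regions with a gained region and a next SMARCB1 region within 50 kb, the next one also held a gained region in 1077 (17.0%, 16.1 to 17.97%). Over all such next regions the share was 8.06%. The next regions had a median SMARCB1 density of 1.45 RPKM against 1.46 RPKM over all, and taking the share from the decile of SMARCB1 density that each lies in gave 8.78%. For SMARCB1 regions with a BRD9 region called in all 6 lists the share was 24.1% against 3.57% over all, and 5.70% by deciles of density, a ratio of 6.76 to the share over all against 2.11 for the gained regions. A BRD9 region that overlaps more than 1 SMARCB1 region counts for each, which adds to these shares. Of the gained regions 31 did so. The number among the wider regions called in all 6 lists is not given, so the ratios are not like for like. The gained share depended on the SMARCB1 reference: it was 10.1% with SMARCB1 peaks of either replicate and 11.5% without SMARCB1 replicate 1. The share over all next regions was then 4.02% and 4.52%, so the ratio was 2.51 and 2.54.

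In windows of 1 Mb, gained regions occurred in 1541 of the 2554 that hold a SMARCB1 region. Windows with 10 or more numbered 228 (8.93%) and contained 3665 gained regions (46.6%). These windows were picked by their gained regions, and the share of all SMARCB1 or BRD9 regions that lie in them is not given. The 46.6% is therefore not a measure of clustering beyond that of SMARCB1 regions. The densest was chr4:124000001-125000000, with 46 gained regions in 38 of its 109 SMARCB1 regions. BRD9 peaks there numbered 18, 12 and 17 under GFP and 103, 86 and 111 under SMARCB1. The second was chr3:171000001-172000000 and was more one-sided, with 2, 1 and 0 peaks under GFP and 88, 92 and 93 under SMARCB1. Its 41 gained regions lie in 16 of 78 SMARCB1 regions, which cover 475 kb of the window, and none of its BRD9 regions was called in all 6 lists.

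The other windows were chr11:86000001-87000000 with 38 gained regions, and chr6:11000001-12000000 and chr10:3000001-4000000 with 37 each. Their BRD9 peaks went from 14, 11 and 12 to 70, 67 and 75 on chromosome 11, from 15, 26 and 17 to 91, 92 and 88 on chromosome 6, and from 6, 7 and 8 to 66, 61 and 60 on chromosome 10. In all 5 windows every SMARCB1-induced list had more peaks than every GFP-induced list, as a choice by gained regions would produce.

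Chromosomes differed in how many of their SMARCB1 regions held a gained region. The share was highest on chromosome 13, with 261 of 2118 (12.3%, 10.99 to 13.8%), and lowest on chromosomes 22 (3.59%, 2.78 to 4.63%) and 19 (3.76%, 3.05 to 4.63%). On the others it was between 5.01 and 9.97%. On chromosome 19 the classes were turned around, since 14.3% of its SMARCB1 regions held a BRD9 region called in all 6 lists, the highest share of any chromosome, against 3.4% over all. Median SMARCB1 density was 1.43 RPKM on chromosome 13, 1.52 RPKM on chromosome 19 and 1.56 RPKM on chromosome 8, where the gained share was 9.97%.

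**Figure D5:**
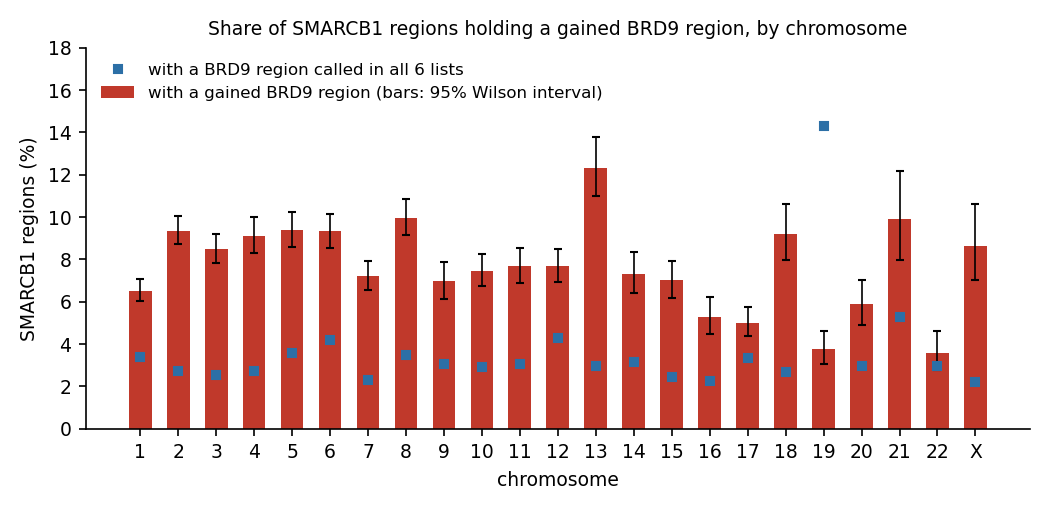
Share of SMARCB1 regions (%) on each chromosome that hold a gained BRD9 region (bars, with 95% Wilson intervals) or a BRD9 region called in all 6 lists (blue squares). Chromosome 13 has the highest gained share at 12.3%, and on chromosome 19 the gained share is 3.76% while the share with a region called in all 6 lists is 14.3%.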

How the data were processed

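CUT&RUN peak lists of 8 samples were used, each called per sample. Per the submitters' processing notes, BWA 0.7.12-r1039, SAMtools, bedtools, DiffBind and edgeR were used, with hg19 and GRCh37 among the builds named; the peak caller is not given in the sources used here. The deposited lists give, for each peak, raw read counts of sample and control, both as RPKM, the log2 fold difference, the −log10 of the false discovery rate (used here only for a stricter threshold) and the apex, per the file headers. Column names and values showed that RPKM uses End minus Start as the width.

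Groups came from the sample titles. The regions and lists described were chosen with earlier results of these data known. Named regions are the 5 with the highest SMARCB1 density, the 5 with the highest BRD9 density (at least 20 reads per list), the 3 nearest the median BRD9 density, the 5 SMARCB1 regions and the 5 windows of 1 Mb with the most gained regions. Density of a SMARCB1 region is that of its peaks, taken as total reads over total length. Tests were two-sided exact sign-flip permutation tests of 1 value per list, adjusted by the Benjamini-Hochberg method over 6 tests. Apex, width class, chromosome, control density and neighbour density results were added after seeing the data. Tested on simulated data, the code found 500 of 500 gained regions put in, and 2 brute-force checks gave 0 differences. The simulated lists had no missed or false calls, so this checks the code and not the calls of real lists. Alternatives changed the score threshold, overlap, SMARCB1 reference, merging, lists required, region width and distance, and left out each list. No genome or gene annotation of hg19 was used here, so no gene, motif or sequence is reported. Python 3.11.15, numpy 2.4.6, pandas 2.3.3, scipy 1.17.1 and matplotlib 3.10.9 were used.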

Additional observations from a re-analysis of the deposited data

How the results depend on the processing

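Of 148 recomputed values, 113 held, 32 moved and 3 changed sign, by a rule that differed between results. Position and SMARCB1 density results held if they kept their direction. The BRD9 difference and the left-out share held within the SD over lists, and the count within a fixed fold of its main value. Shares of neighbouring gained regions held within the 95% Wilson interval of the main share, which covers counting error and not replicate spread. The tests cannot pass 0.05 in this design, so direction is what they show. The count of gained regions was 5162 among peaks at or above their list's median score, 13740 with a peak in at least 2 of 3 SMARCB1-induced lists, and from 7885 to 10283 when each list was left out, where fewer calls are required. Same-numbered lists did not deviate together (correlations of calls 0.0095, 0.0077 and 0.0013), so they were not treated as pairs, although this does not show that they are unpaired. With a replicate block, which asks for a gain in at least 2 of the 3 same-numbered pairs and a loss in none, the count was 15140; this rule needs fewer calls than 3 of 3 against 0 of 3.

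The log2 BRD9 difference from regions called in all 6 lists was -0.25 among those peaks, -0.24 with at least 50% of the region covered, -0.21 with SMARCB1 peaks of either replicate, -0.31 with at least 2 of 3 lists and -0.14 at 500 to 2000 bp, and ran from -0.25 to -0.18 leaving out each list. The share of next SMARCB1 regions also gained was 21.0%, 10.1% and 22.7% among those peaks, with either SMARCB1 replicate and with at least 2 of 3 lists, and from 11.5 to 19.6% leaving out each list; its ratio to the share over all next regions stayed between 1.68 and 2.54. The share with another gained region within 50 kb was 64.3% among those peaks, 67.4% with peaks within 500 bp merged and 78.3% with at least 2 of 3 lists, and from 70.1 to 74.6% leaving out each list; within 20 and 100 kb it was 52.1 and 80.8%.

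Reversed were the log2 SMARCB1 difference between the gained and constant classes, to 0.017 without SMARCB1 replicate 1 (range -0.075 to 0.017 leaving out each list) and 0.22 with control subtracted, and the difference in apexes within 150 bp, to -0.76 points at 500 to 2000 bp. The cause was not tested. The SMARCB1 difference from regions without BRD9 stayed between 0.30 and 0.75, the share wholly inside between 4.72 and 13.0 points, and the apex distance between -96 and -7.5 bp. Motif and gene-start results were not run. With a median of 30 to 38 reads per gained peak, a missing call is not shown to be missing BRD9.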
